A study of Homo sapiens with 12 samples.

Results

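The genes described here are 38 that act when a cell passes from G2 through mitosis: the mitotic cyclins and their kinase, the mitotic kinases, the spindle assembly checkpoint, the anaphase-promoting complex's partners, and proteins of the chromosome, spindle and cleavage furrow. They were chosen by symbol from the 19919 gene rows of the deposited count table. All 38 were found once each, and all 38 were among the 12027 genes with enough counts to test. The lowest count of any of them in any library was 130, so none was tested through 1 high group alone.

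RNA was sequenced from Raji and Daudi, established lines of Burkitt lymphoma, a B cell tumour in which translocation drives MYC. The 4 groups were RAJI wt (4 libraries), RAJI FBXO11 knock-out (4), DAUDI wt (2) and DAUDI FBXO11 knock-out (2), called Raji or Daudi wild type and knockout below. The knockouts were clones grown from single cells after lentiviral delivery of Cas9 with guides to exon 4 of FBXO11, puromycin selection and a screen for loss of the gene. Which clone and guide each knockout library stands for, and whether the wild-type cells had received a vector, are not given in the sources used here. FBXO11 is an F-box protein that hands substrates, BCL6 among them, to an SCF ubiquitin ligase, and the series compares cells with and without it.

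Entry into mitosis is driven by CDK1 bound to cyclin A or B, which CDC25 phosphatases switch on. PLK1 and the Aurora kinases then build the spindle, the checkpoint holds anaphase until every kinetochore is attached, and the anaphase-promoting complex (APC/C) with CDC20 ends mitosis by marking cyclin B and securin for destruction. Most of these genes are transcribed in S phase, G2 and mitosis and are silent in resting cells, and their promoters are known targets of the MuvB complex, MYBL2 and FOXM1. MuvB binds through LIN54 to the cell cycle homology region (CHR), with the letters TTTGAA, and NF-Y binds CCAAT boxes. In B cells the programme is high in the dividing centroblasts from which Burkitt lymphoma is thought to arise.

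The promoter windows of the genes show what they share in sequence. RefSeq's table for GRCh38.p14 held 40 windows for 31 of the 38 genes, each running from 250 bases before a transcript start to 50 after it. AURKA, BUB3, TTK, TPX2, BIRC5, UBE2C and FOXM1 had no entry. Both motifs were searched on both strands, where TTTGAA also reads as TTCAAA and CCAAT as ATTGG, and neighbouring matches of the pair can share an end base. TTTGAA stood in 25 of the 40 windows (62.5%), against 15.16% of all 35116 windows and 10.72% of the 13604 windows of genes tested here. CCAAT stood in 31 (77.5%), against 34.61% of all windows. A pair or more of CCAAT boxes stood in 18 windows (45%), against 10.75%, and both motifs stood in 22 (55%), against 5.903%. In 19 windows a TTTGAA lay within 50 bases of the start, on either side of it. The share of all windows with that placement was not counted. A match is a description of the letters, not of a bound site.

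The 250 bases before the start are shown for 5 genes to let the arrangement be seen, with TTTGAA and CCAAT matches on either strand in capitals and the last base next to the transcript start.
PLK1 (chr16:23678639-23678888, plus strand): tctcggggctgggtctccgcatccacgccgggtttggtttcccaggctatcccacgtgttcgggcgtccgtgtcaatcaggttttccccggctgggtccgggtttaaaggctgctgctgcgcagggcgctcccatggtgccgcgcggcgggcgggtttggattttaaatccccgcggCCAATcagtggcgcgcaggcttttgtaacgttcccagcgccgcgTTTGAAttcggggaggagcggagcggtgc
KIF4A (chrX:70289854-70290103, plus strand): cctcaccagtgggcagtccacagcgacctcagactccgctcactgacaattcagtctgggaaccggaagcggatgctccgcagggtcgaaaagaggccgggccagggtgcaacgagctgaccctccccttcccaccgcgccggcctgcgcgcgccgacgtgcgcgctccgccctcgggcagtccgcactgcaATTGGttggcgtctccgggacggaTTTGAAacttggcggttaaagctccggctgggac
CDK1 (chr10:60778228-60778477, plus strand): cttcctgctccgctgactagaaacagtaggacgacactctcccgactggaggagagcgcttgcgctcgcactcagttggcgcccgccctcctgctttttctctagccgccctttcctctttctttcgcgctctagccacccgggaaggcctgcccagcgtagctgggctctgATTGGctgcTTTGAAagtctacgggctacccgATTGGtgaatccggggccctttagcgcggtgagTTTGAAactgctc
BUB1B (chr15:40160819-40161068, plus strand): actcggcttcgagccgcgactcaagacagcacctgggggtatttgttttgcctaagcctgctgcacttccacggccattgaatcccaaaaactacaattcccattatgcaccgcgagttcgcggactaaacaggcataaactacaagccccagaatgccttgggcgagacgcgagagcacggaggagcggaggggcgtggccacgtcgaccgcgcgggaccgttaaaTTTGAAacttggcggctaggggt
CCNB1 (chr5:69166900-69167149, plus strand): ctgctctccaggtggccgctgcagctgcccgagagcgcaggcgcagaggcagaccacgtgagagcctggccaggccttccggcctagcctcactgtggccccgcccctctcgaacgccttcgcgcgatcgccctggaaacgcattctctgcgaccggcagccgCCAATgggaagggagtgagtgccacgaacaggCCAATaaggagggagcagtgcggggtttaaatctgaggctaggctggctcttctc
PLK1 and KIF4A each had 1 CCAAT and 1 TTTGAA, the TTTGAA beginning 29 and 34 bases before the start and the CCAAT 73 and 58 bases before it. CDK1 had 2 of each before its downstream start, BUB1B had a TTTGAA and no CCAAT, and CCNB1 had 2 CCAAT boxes and no TTTGAA. Of the 6 genes that differed between the wild-type lines (below), NUSAP1, BUB1B, PLK1 and KIF4A held a TTTGAA, while KIF20A and the 4 windows of CDC25B held none.

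Libraries held 11.2M to 23.6M counts, and levels are given as CPM, the counts a gene would have in a library of 1M, after scaling between libraries. The targeted gene, FBXO11, measured 118, 68.6, 88.0 and 83.0 CPM in Raji wild type, 72.1, 70.6, 34.1 and 47.9 in Raji knockout, 81.8 and 51.7 in Daudi wild type, and 88.4 and 92.8 in Daudi knockout. Its log2 fold change, knockout over wild type, was -0.67 in Raji (SE 0.25, adjusted p = 0.208) and 0.44 in Daudi (SE 0.35, adjusted p = 0.646). Both Daudi knockout libraries were above both wild-type ones. The size of the edit in exon 4 and its effect on the transcript's level were not tested, and opposite-strand genes overlap 26.9% of the exonic sequence, so these levels do not check the knockout. The 6 B cell markers MS4A1, CD79A, CD79B, PAX5, CD22 and BLK were present in every library at 80.1 to 1339 CPM. Summed over lists of 5, T cell markers held 0 to 0.552 CPM in Raji libraries, 0.0830 and 1.14 in Daudi wild type and 2.01 and 2.79 in Daudi knockout, with CD3E the highest at up to 2.59 and CD2 and CD8A at 0 counts in all 12 libraries. Myeloid markers summed to 0.0892 to 1.75 CPM in Raji, 28.1 and 28.5 in Daudi wild type and 11.7 and 17.0 in Daudi knockout, with CSF1R the highest at up to 25.6. Epithelial markers summed to 0.0892 to 1.85 CPM, with CDH1 the highest at up to 1.77. Fibroblast and endothelial markers summed to 15.9 to 34.1 CPM in Raji wild type, 7.38 to 20.02 in Raji knockout, 23.2 and 50.7 in Daudi wild type and 14.23 and 14.26 in Daudi knockout; COL1A1 (up to 34.1 CPM) and PECAM1 (up to 49.98) were found in every library, while COL1A2, COL3A1 and DCN were at 0 counts in 10 or 11 of the 12. The part of these markers in the results was not tested. Raji wild-type libraries 3 and 4 were far closer to each other than other replicates, with a chi-square over degrees of freedom of 2.18 where other replicate pairs gave 21.9 to 171. Whether replicates came from separate cultures is not stated in the labels, so p-values reflect the spread among these libraries only, and that spread may be technical.

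In both knockout groups the levels of the mitotic genes moved together from library to library, and libraries of 1 group lay further apart than the group means. Raji knockout 4 was the lowest of its 4 libraries for 38 of 38 genes, against 31.4% of all genes tested. Its level was a median 0.499 of the mean of the other 3 knockout libraries, from 0.323 for ANLN to 0.902 for BUB3, and 36 of the 38 were below 0.75 of that mean. Over all genes tested the same ratio had a median of 0.980, with 24.1% of genes below 0.75. Summed over the 38 genes, Raji knockout libraries 1 to 4 held 5862, 6942, 5356 and 3118 CPM and Raji wild-type libraries 1 to 4 held 4631, 6364, 5640 and 5689 CPM. Raji knockout 2 was the highest and knockout 4 the lowest of all 8 Raji libraries, so that both ends of the range fell in the knockout group. The summed level was 5581 ± 714 CPM (SD, n = 4) in Raji wild type and 5320 ± 1610 CPM (SD, n = 4) in Raji knockout.

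Other libraries stood apart less far. Raji wild type 1 was the lowest of its group for 33 of 38 genes (39.5% of all genes) at a median of 0.771 of the other 3, and Raji wild type 2 was the highest for 28. Daudi wild type 1 was below wild type 2 for 24 of 38 genes and above it for 14 (45.3% of all genes were below), with ratios from 0.576 for CCNB1 to 1.53 for CDC25B, so this pair showed no common direction. Daudi knockout 2 was below Daudi knockout 1 for 38 of 38 genes, against 49.1% of all genes, at a median ratio of 0.675. Daudi summed levels were 5493 and 5920 CPM in wild type and 7242 and 4898 CPM in knockout, and the wild-type pair lay between the knockout pair. The median coefficient of variation of the 38 genes was 14.6% in Raji wild type and 32.4% in Raji knockout, where all genes had 16.2% and 19.5%. In Daudi it was 14.5% in wild type and 27.4% in knockout, where all genes had 23.3% and 11.1%. In bulk RNA, fewer cells in G2 and mitosis and less of these transcripts per cell cannot be told apart.

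The total of Raji knockout 4, 18.3M counts, lay between those of knockout 3 (17.6M) and knockout 1 (23.6M), and its 20 most abundant genes took 11.7% of counts against 11.7% to 14.3% in the other 3. Its 6 B cell markers summed to 2678 CPM, the highest of the 4 knockout libraries, which ran from 2306 CPM. The share of all counts that fell on the 38 genes was 0.319% in it and 0.495% to 0.677% in the other 3 knockout libraries. Its TMM scaling factor was 1.02, against 0.924 to 0.976 in the other 3. Over all genes, its chi-square over degrees of freedom was 125 with knockout 1, 103 with knockout 2 and 49.1 with knockout 3. Pairs among the other 3 gave 21.9 to 74.9.

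**Figure D1:**
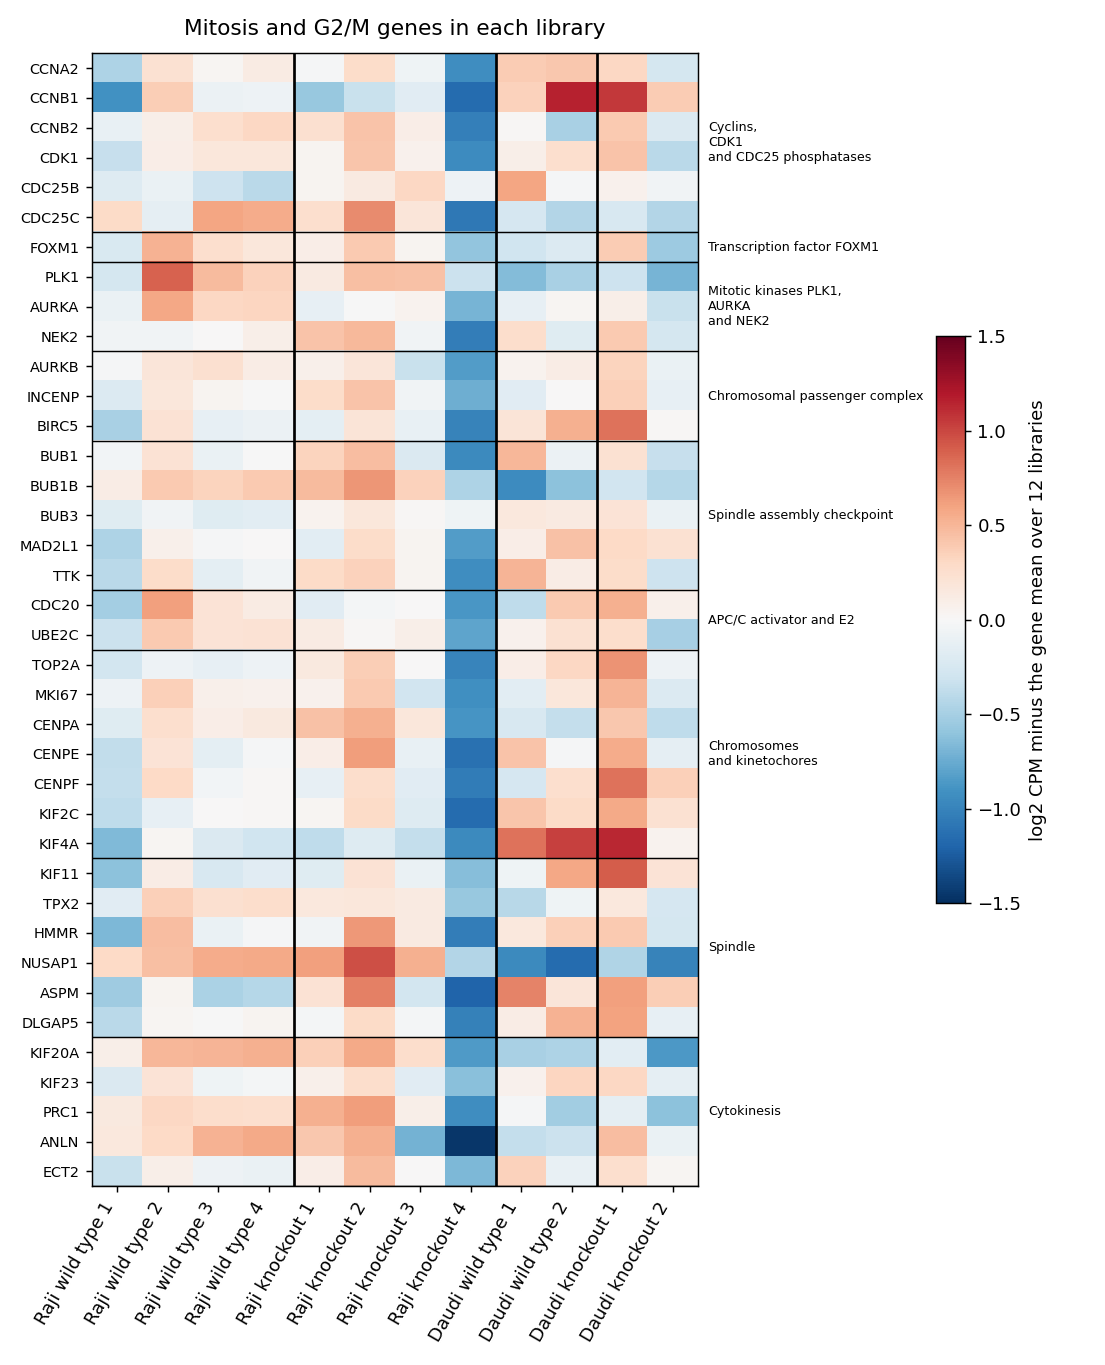
Level of each of the 38 genes (rows, grouped by role) in each of the 12 libraries (columns, with lines between groups). Colour gives log2 CPM minus the gene's mean over the 12 libraries, red for above and blue for below; the column of Raji knockout 4 is blue or near white for every gene, and Raji knockout 2 and Daudi knockout 1 are mostly red.

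The low values in Raji knockout 4 reached genes of all 9 roles. The median ratio to the other 3 libraries was 0.421 for the 5 cytokinesis genes, 0.445 for the 7 chromosome and kinetochore genes, 0.459 for the 6 spindle genes and 0.480 for the 6 cyclin, CDK1 and CDC25 genes. It was 0.510 for the 3 chromosomal passenger genes, 0.513 for the 5 checkpoint genes, 0.559 for CDC20 and UBE2C, 0.585 for FOXM1 and 0.623 for PLK1, AURKA and NEK2. Only BUB3, which binds kinetochores with BUB1 and also serves outside mitosis, and CDC25B stood above 0.75 of the other knockout libraries, at 0.902 and 0.846.

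Other cell cycle genes were read from lists that hold none of the 38. Raji knockout 4 was also the lowest of its group for 25 of 25 further spindle, motor and cytokinesis genes, 17 of 20 cohesin, condensin and separase genes, 13 of 15 regulators of mitotic entry and exit and 24 of 34 kinetochore and centromere genes. It was the lowest for 8 of 18 APC/C genes, for 10 of 19 transcription regulators of the MuvB, MYB, E2F and NF-Y families and for 16 of 34 G1/S and DNA replication genes. The mean centred log2 level of the replication list was -0.17 in Raji knockout 4 and -0.18 in knockout 1, while the mitotic genes stood at -0.84 and 0.11. Raji wild type 1 differed from that: it was the lowest of its group for 34 of 34 replication genes as well as for 33 of the 38 mitotic genes, with mean levels of -0.39 and -0.25. Daudi wild type 1 was at -0.65 for the replication list and 0.02 for the mitotic genes.

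**Figure D2:**
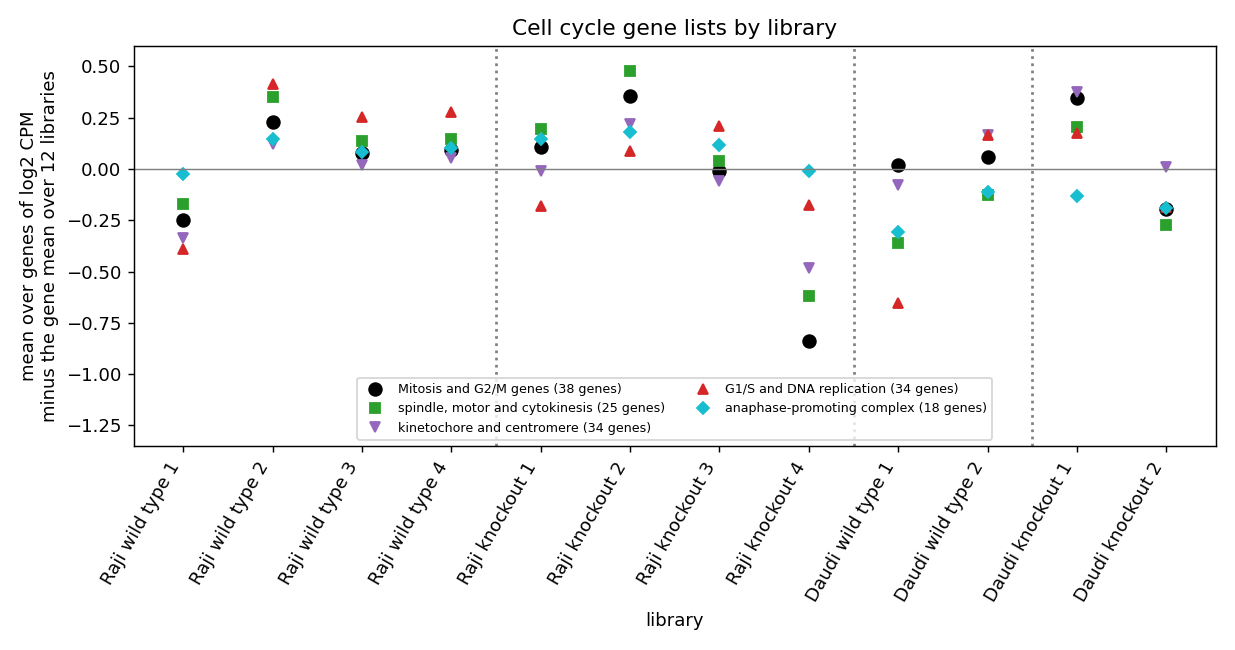
Mean over the genes of a list of log2 CPM minus the gene's mean over 12 libraries (vertical axis), for each library (horizontal axis, dotted lines between groups), with 1 symbol per list. The 38 mitotic genes fall to -0.84 in Raji knockout 4 while the replication list is at -0.17 there, and in Daudi wild type 1 the replication list is at -0.65 while the mitotic genes are at 0.02. The spindle and APC/C lists have means of -0.36 and -0.31 in Daudi wild type 1, but medians of -0.058 and -0.059. The largest log2 difference of a gene, Raji over Daudi wild type, is 13.2 in the spindle list and 9.76 in the APC/C list.

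The comparison of knockout with wild type asked whether these genes differed between knockout clones and wild-type cells. In it, loss of FBXO11 cannot be told apart from the cloning and selection of the knockout cells. None of the 38 passed the test in either line. In Raji 0 of 38 had an adjusted p under 0.05 in edgeR's quasi-likelihood test with Benjamini-Hochberg adjustment over all genes, where 2.60% of all genes tested did. In Daudi it was 0 of 38 against 2.62%, and 0 of 38 against 3.39% for the mean of both lines. At an unadjusted p under 0.05 there were 2 genes in Raji (AURKA and CDC25B, against 15.8% of all genes), 0 in Daudi (against 14.4%) and 0 for the mean of both lines (against 16.9%). DESeq2 called 0 in each line, where it called 6.81% of all genes in Raji and 5.92% in Daudi. Limma-voom with library quality weights called 4 of 38 in Raji (CDC25B, AURKA, BUB3 and ASPM), where it called 29.3% of all genes, and 0 in Daudi, where it called 2.41%.

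The log2 fold changes were centred near 0. In Raji the median was -0.06 (0.01 over all genes), from -0.49 for ANLN to 0.37 for ASPM, with 14 genes above and 24 below 0. In Daudi the median was 0.02, from -0.34 for CCNA2 to 0.59 for CENPF, with 23 above and 15 below. The 95% interval of the change lay within 2-fold either way for 35 of 38 genes in Raji (92.1%, against 70.9% of all genes). In Daudi it did so for 25 of 38 (65.8%, against 52.9% of all genes). For the mean of both lines it lay within 2-fold for 38 of 38, against 72.4% of all genes. The widest bounds among the 38 were -0.78 and 0.81. Leaving out Raji knockout 4 turned the Raji median to 0.15, and leaving out Daudi knockout 1 or 2 turned the Daudi median to -0.27 or 0.26, with 0 genes called in each case.

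Overlap between groups was also read directly. In Raji 1 of the 38 genes, CDC25B, had no overlap between wild-type and knockout libraries, being higher in knockout, where 11.8% of all genes had none and 5.80% were higher without overlap. In Daudi 4 had none (BUB1B, CENPF, ANLN and CCNA2), where 39.7% of all genes had none with 2 libraries against 2.

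**Figure D3:**
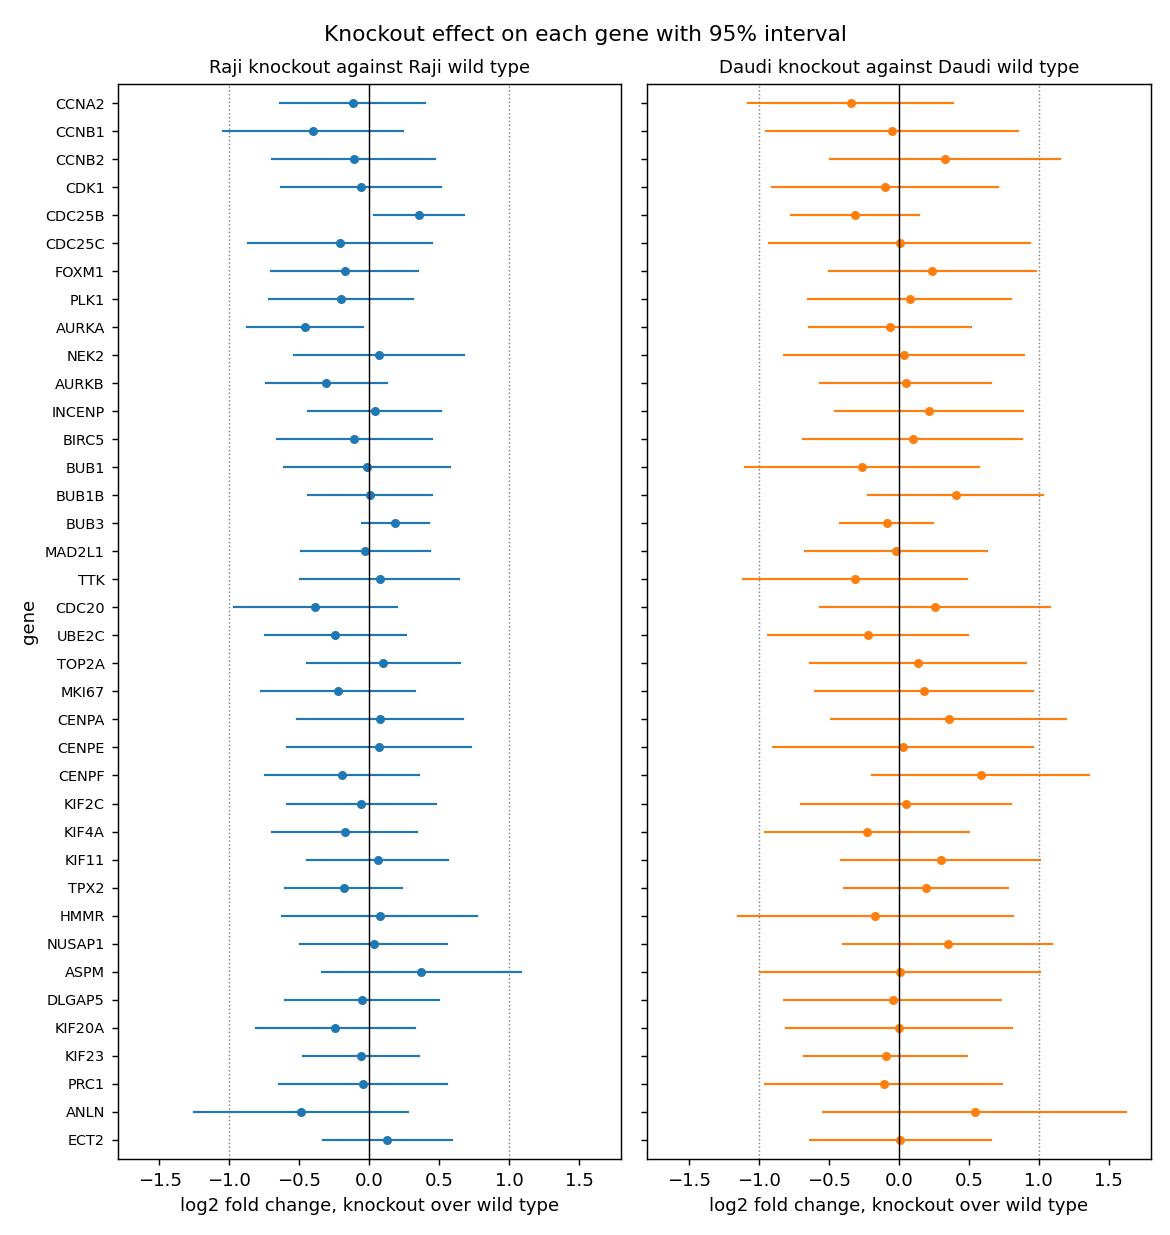
Log2 fold change of knockout over wild type for each of the 38 genes (points) with its 95% interval (bars), in Raji (left) and Daudi (right), with dotted lines at 2-fold. The points lie on both sides of 0 in both lines, and the Daudi bars are the wider ones; only the Raji intervals of CDC25B and AURKA leave out 0 before adjustment.

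Levels of single genes are listed in the order of the libraries within a group, and log2 fold changes are of knockout over wild type from the edgeR fit, with p-values adjusted over all genes.

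Among the cyclins, CDK1 and the CDC25 phosphatases (6 genes), 1 log2 fold change was positive and 5 were negative in Raji, and 2 were positive and 4 negative in Daudi. CDK1, the kinase that drives entry into mitosis, measured 104, 142, 149 and 149.5 CPM in Raji wild type, 137, 177, 139.6 and 69.4 in Raji knockout, 141 and 158 in Daudi wild type, and 179 and 100.3 in Daudi knockout. Its range in the knockout spanned that of the wild type in both lines, and the log2 fold changes were -0.06 (SE 0.26, adjusted p = 0.966) in Raji and -0.10 (SE 0.37, adjusted p = 0.947) in Daudi. CCNB1, cyclin B1, measured 46.2, 112, 81.7 and 82.1 CPM in Raji wild type, 58.4, 69.0, 76.7 and 38.8 in Raji knockout, 111 and 192 in Daudi wild type, and 180.1 and 112 in Daudi knockout. Every Raji library was below Daudi wild type 2 and Daudi knockout 1, and the log2 fold changes were -0.41 (SE 0.29, adjusted p = 0.582) in Raji and -0.05 (SE 0.41, adjusted p = 0.986) in Daudi. CCNA2, cyclin A2, which binds CDK2 in S phase and CDK1 in G2, measured 88.4, 142, 124 and 132 CPM in Raji wild type, 120.4, 147, 117 and 64.1 in Raji knockout, 159 and 161 in Daudi wild type, and 151 and 101 in Daudi knockout. Raji knockout 4 was the lowest Raji library, both Daudi knockout libraries were below both wild-type libraries, and the log2 fold changes were -0.12 (SE 0.24, adjusted p = 0.891) in Raji and -0.34 (SE 0.34, adjusted p = 0.722) in Daudi. CDC25C had the lowest mean of the 38 genes in every group, from 11.6 CPM in Daudi wild type to 18.7 CPM in Raji wild type.

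CDC25B, the phosphatase that activates CDK1 at the centrosome at the start of mitosis, measured 155, 164, 142 and 134 CPM in Raji wild type, 182, 193, 219 and 167 in Raji knockout, 266 and 174 in Daudi wild type, and 184 and 170.4 in Daudi knockout. All 4 Raji knockout libraries, knockout 4 included, were above all 4 wild-type libraries, while in Daudi wild type 1 was the highest library and the other 3 lay close together. Its log2 fold change was 0.36 in Raji (SE 0.15, 95% interval 0.03 to 0.68, adjusted p = 0.26) and -0.31 in Daudi (SE 0.21, adjusted p = 0.561). The Raji value minus the Daudi value was 0.67 (SE 0.26, adjusted p = 0.273) and did not pass the test. In that test of the difference between lines 0 of 38 genes passed, where 0.773% of all genes did. CDC25B was the 1 gene with an unadjusted p under 0.05, where 13.1% of all genes had one. Without Daudi wild type 2 the CDC25B difference passed (0.94, adjusted p = 0.0457). The 95% interval of the difference between lines lay within 2-fold for 8 of 38 genes (21.1%, against 38.1% of all genes). It reached beyond 2-fold for the other 30.

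FOXM1, the forkhead factor that drives transcription of G2 and M genes, measured 175, 293, 244 and 229.8 CPM in Raji wild type, 218, 269, 211 and 136 in Raji knockout, 166 and 178 in Daudi wild type, and 265 and 141 in Daudi knockout. The groups overlapped in both lines, and the log2 fold changes were -0.17 (SE 0.24, adjusted p = 0.815) in Raji and 0.24 (SE 0.34, adjusted p = 0.823) in Daudi. An opposite-strand gene, ITFG2, overlaps 15.9% of the exonic sequence of FOXM1, and the kit does not mark strand. PLK1, the polo-like kinase, measured 88.9, 197, 148 and 135 CPM in Raji wild type, 118, 146, 145 and 85.1 in Raji knockout, 68.2 and 76.3 in Daudi wild type, and 86.5 and 66.0 in Daudi knockout. Raji wild type held both the highest library (2) and nearly the lowest (1), and the knockout libraries fell between or just below them, with log2 fold changes of -0.20 (SE 0.23, adjusted p = 0.765) in Raji and 0.08 (SE 0.33, adjusted p = 0.958) in Daudi. AURKA, the Aurora kinase of the centrosome and spindle pole, measured 58.3, 92.9, 77.3 and 77.5 CPM in Raji wild type, 57.2, 62.2, 64.6 and 38.2 in Raji knockout, 57.2 and 63.4 in Daudi wild type, and 66.0 and 49.5 in Daudi knockout. Its 4 Raji knockout libraries lay below 3 of the 4 wild-type libraries, and wild type 1 lay among them. This gave the smallest adjusted p of the 38 in Raji, with a log2 fold change of -0.46 (SE 0.19, 95% interval -0.87 to -0.05, adjusted p = 0.255), against -0.06 (SE 0.27, adjusted p = 0.958) in Daudi. Without Raji knockout 4 the AURKA value was -0.32 (adjusted p = 0.359).

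AURKB, the Aurora kinase of the chromosomal passenger complex, which corrects faulty kinetochore attachments, measured 97.7, 112, 116 and 106 CPM in Raji wild type, 104, 112, 78.2 and 55.2 in Raji knockout, 102 and 107 in Daudi wild type, and 125 and 91.7 in Daudi knockout. Raji knockout 3 and 4 were the 2 lowest of the 8 Raji libraries, and the log2 fold changes were -0.31 (SE 0.20, adjusted p = 0.514) in Raji and 0.05 (SE 0.28, adjusted p = 0.972) in Daudi. INCENP and BIRC5 (survivin), the scaffold and a targeting subunit of that complex, had log2 fold changes of 0.04 and -0.11 in Raji and 0.22 and 0.10 in Daudi.

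Of the 5 checkpoint genes, 3 had positive and 2 negative log2 fold changes in Raji, and 1 had a positive and 4 a negative one in Daudi. BUB1, a checkpoint kinase at kinetochores, measured 136, 163, 131 and 139.6 CPM in Raji wild type, 177, 193, 121 and 71.9 in Raji knockout, 197 and 131 in Daudi wild type, and 164 and 110.5 in Daudi knockout. Raji knockout held both the highest and the lowest Raji library, and the log2 fold changes were -0.02 (SE 0.27, adjusted p = 1) in Raji and -0.26 (SE 0.38, adjusted p = 0.832) in Daudi. BUB1B, which encodes BUBR1, a part of the inhibitor of APC/C-CDC20, measured 158, 193, 184 and 192 CPM in Raji wild type, 203, 232, 186 and 106 in Raji knockout, 76.3 and 95.7 in Daudi wild type, and 119 and 109 in Daudi knockout. Both Daudi knockout libraries were above both wild-type libraries, the Raji groups overlapped, and the log2 fold changes were 0.00 (SE 0.20, adjusted p = 1) in Raji and 0.41 (SE 0.29, adjusted p = 0.589) in Daudi. BUB3 measured 160.2, 175, 159 and 163 CPM in Raji wild type, 189, 204, 183 and 173 in Raji knockout, 203 and 199 in Daudi wild type, and 209 and 169 in Daudi knockout. It varied least among the 38 in Raji knockout, where 3 libraries lay above every wild-type library and knockout 4 just below the highest one, and the log2 fold changes were 0.19 (SE 0.11, adjusted p = 0.457) in Raji and -0.09 (SE 0.15, adjusted p = 0.862) in Daudi. MAD2L1 and TTK, the checkpoint effector and the MPS1 kinase, had log2 fold changes of -0.03 and 0.08 in Raji.

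UBE2C, the ubiquitin-conjugating enzyme of the APC/C, measured 103, 168, 148 and 149 CPM in Raji wild type, 139.9, 129, 136 and 73.9 in Raji knockout, 134 and 150.0 in Daudi wild type, and 154 and 90.5 in Daudi knockout. Raji knockout 4 lay far below the other 3 knockout libraries, which sat within the wild-type range, and the log2 fold changes were -0.24 (SE 0.23, adjusted p = 0.695) in Raji and -0.22 (SE 0.33, adjusted p = 0.834) in Daudi. CDC20, the activator of the complex in mitosis, had log2 fold changes of -0.38 in Raji and 0.26 in Daudi.

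Among the 7 chromosome and kinetochore genes the log2 fold changes ran in Raji from -0.22 to 0.10 and in Daudi from -0.23 to 0.59. TOP2A, the topoisomerase that untangles sister chromatids, measured 504, 579, 559 and 577 CPM in Raji wild type, 677, 785, 609 and 308 in Raji knockout, 654 and 757 in Daudi wild type, and 976 and 579 in Daudi knockout. Its Raji knockout libraries ran from far below to above the whole wild-type range, and the log2 fold changes were 0.10 (SE 0.25, adjusted p = 0.919) in Raji and 0.14 (SE 0.35, adjusted p = 0.916) in Daudi. MKI67, the Ki-67 protein that coats mitotic chromosomes and serves as a marker of dividing cells, measured 558, 753, 622 and 619 CPM in Raji wild type, 619, 775, 483 and 311 in Raji knockout, 528 and 665 in Daudi wild type, and 841 and 512 in Daudi knockout. Daudi knockout 1 was the highest and Raji knockout 4 the lowest of the 12, and the log2 fold changes were -0.22 (SE 0.25, adjusted p = 0.759) in Raji and 0.18 (SE 0.36, adjusted p = 0.882) in Daudi. CENPA, the histone H3 variant of centromeres, measured 21.5, 29.1, 26.1 and 27.0 CPM in Raji wild type, 33.2, 35.5, 27.4 and 13.2 in Raji knockout, 20.7 and 19.0 in Daudi wild type, and 32.2 and 18.8 in Daudi knockout. Knockouts 1 and 2 of Raji were above every Raji wild-type library and knockout 4 below every one, and the log2 fold changes were 0.08 (SE 0.27, adjusted p = 0.951) in Raji and 0.36 (SE 0.38, adjusted p = 0.752) in Daudi.

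CENPF, a large kinetochore and nuclear matrix protein of G2, measured 238, 374, 295 and 307 CPM in Raji wild type, 280.1, 364, 269 and 147 in Raji knockout, 255 and 362 in Daudi wild type, and 537 and 389 in Daudi knockout. Both Daudi knockout libraries were above both wild-type ones, the Raji groups overlapped, and the log2 fold changes were -0.20 (SE 0.25, adjusted p = 0.794) in Raji and 0.59 (SE 0.36, adjusted p = 0.512) in Daudi. KIF4A, a chromosome-borne kinesin, measured 31.9, 51.8, 43.6 and 41.3 CPM in Raji wild type, 38.9, 44.4, 39.5 and 26.2 in Raji knockout, 89.1 and 103 in Daudi wild type, and 111 and 52.6 in Daudi knockout. Every Daudi library was above every Raji library, and the log2 fold changes were -0.18 (SE 0.24, adjusted p = 0.809) in Raji and -0.23 (SE 0.33, adjusted p = 0.833) in Daudi. CENPE and KIF2C, a kinesin that congresses chromosomes and one that takes microtubules apart at centromeres, had log2 fold changes of 0.07 and -0.06 in Raji.

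KIF11, the kinesin that pushes spindle poles apart, measured 78.0, 129, 101 and 106 CPM in Raji wild type, 105, 139, 111 and 76.5 in Raji knockout, 114 and 178 in Daudi wild type, and 223 and 137 in Daudi knockout. The groups overlapped in both lines, and the log2 fold changes were 0.06 (SE 0.23, adjusted p = 0.958) in Raji and 0.30 (SE 0.33, adjusted p = 0.756) in Daudi. NUSAP1, which bundles spindle microtubules near chromosomes, measured 172, 191, 205 and 206 CPM in Raji wild type, 214, 272, 202 and 103 in Raji knockout, 72.0 and 62.4 in Daudi wild type, and 102 and 69.6 in Daudi knockout. Each Raji library was above each Daudi library, with Raji knockout 4 nearest to them, and the log2 fold changes were 0.03 (SE 0.24, adjusted p = 0.991) in Raji and 0.35 (SE 0.34, adjusted p = 0.722) in Daudi. The other 4 spindle genes were TPX2, an activator of AURKA, HMMR, DLGAP5 and ASPM, and they had log2 fold changes of -0.18, 0.07, -0.05 and 0.37 in Raji.

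For the 5 cytokinesis genes, 1 Raji log2 fold change was positive and 4 were negative. ANLN, anillin, a scaffold of the contractile ring, measured 83.2, 92.2, 107 and 111 CPM in Raji wild type, 99.2, 108, 45.7 and 27.3 in Raji knockout, 58.4 and 59.9 in Daudi wild type, and 103 and 69.6 in Daudi knockout. Raji knockout 3 and 4 were far below the other 6 Raji libraries, both Daudi knockout libraries were above the wild-type ones, and the log2 fold changes were -0.49 (SE 0.35, adjusted p = 0.577) in Raji and 0.54 (SE 0.50, adjusted p = 0.694) in Daudi. KIF20A, a kinesin of the central spindle, measured 71.0, 94.5, 95.5 and 96.5 CPM in Raji wild type, 85.5, 99.4, 79.9 and 37.1 in Raji knockout, 47.7 and 48.6 in Daudi wild type, and 59.7 and 36.7 in Daudi knockout. Knockout 4 was again the lowest Raji library, and the log2 fold changes were -0.24 (SE 0.26, adjusted p = 0.735) in Raji and 0.00 (SE 0.37, adjusted p = 1) in Daudi. KIF23, PRC1 and ECT2, which build the central spindle and place the furrow, had log2 fold changes of -0.06, -0.05 and 0.13 in Raji. Of the exonic bases of PRC1, 57.6% are shared with AC068831.7, an overlapping gene on the same strand.

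The wild-type lines were compared to show how the genes stand in each line without the knockout. Of the 38, 6 (15.8%) had an adjusted p under 0.05, where 45.1% of all genes tested did. A further 32 did not pass. Of all 38 genes, the 6 included, 8 had an unadjusted p under 0.05, against 52.2% of all genes tested. NUSAP1, BUB1B, PLK1 and KIF20A were higher in Raji (4 of 38, against 20.3% of all genes), and KIF4A and CDC25B were lower in Raji (2 of 38, against 24.8%). The count was 10 (26.3%) without Raji knockout 4, where 46.9% of all genes passed, and 3 (7.89%) without Daudi wild type 1, where 34.6% did. The median log2 difference, Raji over Daudi, was -0.10 (-0.07 over all genes), with 16 genes above and 22 below 0. The wild-type libraries did not overlap for 17 genes, 8 higher and 9 lower in Raji, against 56.5% of all genes (25.6% higher and 30.9% lower). A difference between the lines and one between the cultures taken from them cannot be told apart.

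NUSAP1 had 194 ± 16.1 CPM in Raji wild type (SD, n = 4) and 67.2 ± 6.85 CPM in Daudi wild type (SD, n = 2), a log2 difference of 1.53 (SE 0.32, adjusted p = 0.00218). The gene lies on chromosome 15 from 41332694 to 41381050 (GRCh38, plus strand), and 62.2% of its exonic bases are shared with AC087721.2, an overlapping gene on the same strand that has no row in the table, and the rule for assigning reads of shared exons is not stated in the labels. BUB1B had 182 ± 16.4 CPM against 86.0 ± 13.7 CPM, a difference of 1.08 (SE 0.26, adjusted p = 0.00531). Of the exonic bases of BUB1B, 10.2% are shared with the read-through gene BUB1B-PAK6, which had 0 to 2 counts per library. KIF4A was the largest difference in the other direction, 42.2 ± 8.18 CPM against 95.9 ± 9.64 CPM and -1.19 on the log2 scale (SE 0.28, adjusted p = 0.00467). Its near-identical intronless copy KIF4B had 1 to 7 counts per library. NUSAP1 and KIF4A passed under all 20 alternative settings, and BUB1B passed under all but the fit without Daudi wild type 1 (adjusted p = 0.0574).

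PLK1 had 142 ± 44.3 CPM in Raji and 72.3 ± 5.76 CPM in Daudi wild type, a difference of 0.98 (SE 0.30, adjusted p = 0.0194). Opposite-strand genes overlap 12.5% of its exonic sequence, and the kit does not mark strand. PLK1 did not pass without Daudi wild type 1 (0.90, adjusted p = 0.113), without Daudi wild type 2 (1.06, adjusted p = 0.0562) or with scaling by library totals alone (0.75, adjusted p = 0.054). CDC25B had 149 ± 13.7 CPM and 220.3 ± 65.2 CPM, a difference of -0.57 (SE 0.18, adjusted p = 0.0208). This rested on Daudi wild type 1, at 266 CPM: without it the difference was -0.23 (adjusted p = 0.346). Without Raji wild type 4 it was -0.53 (adjusted p = 0.0534). It did not pass either with the near-identical Raji wild-type libraries 3 and 4 summed (-0.54, adjusted p = 0.0509) or with knockout 1 and 2 and knockout 3 and 4 summed as well (-0.53, adjusted p = 0.0746). KIF20A had 89.4 ± 12.3 CPM and 48.2 ± 0.620 CPM, a difference of 0.89 (SE 0.33, adjusted p = 0.0457), and passed under 10 of 20 settings. It lost the call without any 1 of Raji wild type 2, 3 or 4, Raji knockout 1 or 3, or Daudi wild type 1 or 2, with values of 0.84 to 0.91 and adjusted p-values up to 0.162. CCNB1, with a difference of -0.91 (SE 0.35, adjusted p = 0.0508), did not pass but did under 9 of the 20 settings.

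**Figure D4:**
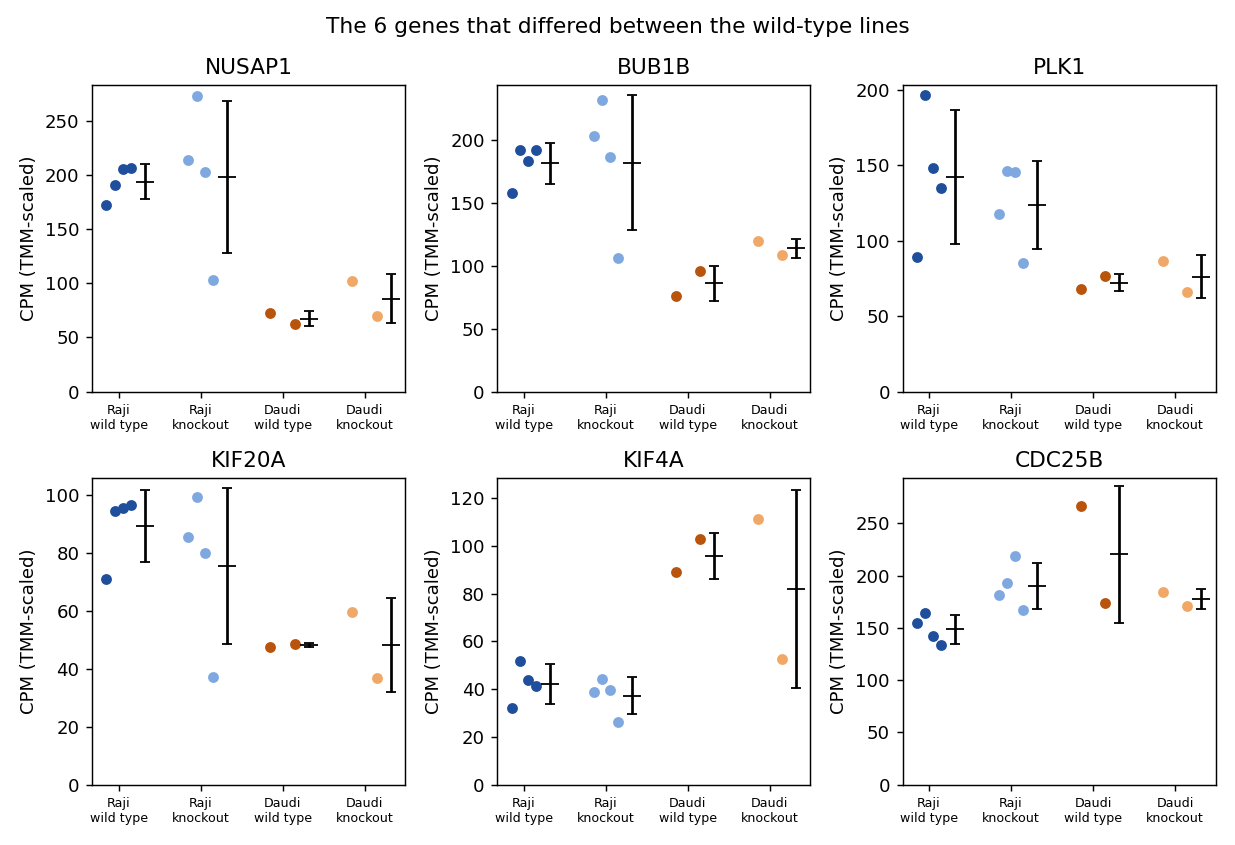
Level in CPM (vertical axis, from 0) of the 6 genes that differed between the wild-type lines, with 1 point per library and bars for the mean ± SD (n = 4 in Raji groups, n = 2 in Daudi groups). NUSAP1, BUB1B, PLK1 and KIF20A are higher in Raji wild type and KIF4A and CDC25B in Daudi wild type. The lowest Raji knockout point of each of the 6 genes is knockout 4.

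Levels of different genes were compared per kilobase of exon, which ran from 1.286 to 12.81 kb. On that scale TOP2A, UBE2C and TPX2 were the 3 highest of the 38 genes in each of the 4 groups, and CDC25C was the lowest in each, at 3.47 to 5.61 CPM per kb. NUSAP1 stood at 67.3 CPM per kb and rank 4 in Raji wild type, against 23.4 and rank 23 in Daudi wild type. PLK1 moved from rank 18 (29.9 CPM per kb) to rank 32 (15.2), and CCNB1 from rank 17 (31.5) to rank 4 (59.1).

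The other cell cycle lists hold genes of the same pathway. In Raji knockout, 0 of 34 kinetochore and centromere genes, 0 of 18 APC/C genes, 0 of 20 cohesin, condensin and separase genes, 0 of 15 mitotic entry and exit regulators and 0 of 34 G1/S and replication genes passed the test in either direction. Among 25 further spindle, motor and cytokinesis genes 1 fell, MELK, and among 19 transcription regulators 1 rose, TFDP2, and 1 fell, CDKN1A. In Daudi knockout TFDP2 rose and CDKN1A fell again, and none of the other 6 lists had a gene that passed. Of all genes tested, 0.923% rose and 1.68% fell in Raji, and 0.798% rose and 1.82% fell in Daudi. The replication list had a median change of -0.16 in Raji, with 28 of 34 genes below 0, and 0.16 in Daudi, with 27 of 34 above 0.

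MELK, a kinase expressed in dividing cells, measured 105, 112, 149 and 148 CPM in Raji wild type, 45.3, 53.5, 47.7 and 28.9 in Raji knockout, 35.7 and 52.1 in Daudi wild type, and 65.0 and 44.7 in Daudi knockout. Its 4 Raji knockout libraries were below all 4 wild-type libraries, knockout 4 being the lowest, while the Daudi groups overlapped. Its log2 fold change was -1.55 in Raji (SE 0.22, adjusted p = 0.00372) and 0.32 in Daudi (SE 0.31, adjusted p = 0.708), and the difference between them was -1.88 (SE 0.38, adjusted p = 0.0468). Leaving out any 1 library except Raji wild type 1, Raji knockout 4 or Daudi wild type 2 ended that call, with adjusted p-values up to 0.226. It was also lost with Raji wild type 3 and 4 summed, with the Raji knockout pairs summed as well, and without Raji knockout 4 and Daudi knockout 2 together (adjusted p-values of 0.0701 to 0.194). TFDP2, the DP2 partner of E2F factors, measured 143, 115, 109.6 and 118 CPM in Raji wild type, 274, 289.7, 359.5 and 195 in Raji knockout, 134 and 146 in Daudi wild type, and 392 and 453 in Daudi knockout. All knockout libraries were above all wild-type libraries of their line, and TFDP2 rose by 1.21 (SE 0.17, adjusted p = 0.00425) in Raji and 1.60 (SE 0.25, adjusted p = 0.00664) in Daudi. CDKN1A, the p21 inhibitor of cyclin-dependent kinases, measured 63.5, 58.2, 49.6 and 47.4 CPM in Raji wild type, 24.4, 21.6, 32.8 and 18.5 in Raji knockout, 31.9 and 40.5 in Daudi wild type, and 12.3 and 7.94 in Daudi knockout. Every knockout library was below every wild-type library of its line, and the log2 fold changes were -1.17 (SE 0.20, adjusted p = 0.0117) in Raji and -1.84 (SE 0.29, adjusted p = 0.00722) in Daudi. In Daudi, TFDP2 did not pass without wild type 1 (1.53, adjusted p = 0.0689) or knockout 2 (1.49, adjusted p = 0.0738), nor CDKN1A without knockout 2 (-1.56, adjusted p = 0.128). With each line fitted alone, neither passed in Daudi (TFDP2 1.62, adjusted p = 0.0764; CDKN1A -1.82, adjusted p = 0.101), and CDKN1A did not pass there without Raji knockout 4 and Daudi knockout 2 together (adjusted p = 0.0864). With Raji wild type 3 and 4, knockout 1 and 2, and knockout 3 and 4 each summed, none of MELK (adjusted p = 0.0884), TFDP2 (0.0589) and CDKN1A (0.116) passed in Raji. The Raji and Daudi comparisons share no library, but the main tests come from the same fit and share its estimate of the variation between libraries.

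In the wild-type lines, more of these lists' genes differed: 9 of 34 kinetochore and centromere genes (3 higher and 6 lower in Raji), 7 of 18 APC/C genes (4 and 3), 6 of 25 spindle, motor and cytokinesis genes (4 and 2) and 7 of 34 replication genes (6 and 1). Cohesin, condensin and separase genes gave 3 of 20 (1 and 2), entry and exit regulators 2 of 15 (0 and 2) and transcription regulators 3 of 19 (1 and 2). These counts are all under the 45.1% of all genes that differed between the lines.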

How the data were processed

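Total RNA went into 12 libraries (Illumina TruSeq RNA kit, version 2), per the labels' protocols. STAR 2.5.0 and RSEM 1.3.0 are listed in the submitters' processing notes, with hg38 as the genome build and no role for either tool. The deposited values are whole-number counts per gene, not normalised. No label says whether they are rounded estimates or how reads matching several genes were treated.

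With edgeR 4.0.16 (R 4.3.3), low-count genes were removed from the deposited counts over the 4 groups (12027 of 19919 left). The fit scaled libraries by TMM, a trimmed mean of log ratios, and fitted a robust quasi-likelihood model to all 12 libraries, with 8 residual degrees of freedom and a common biological coefficient of variation of 26.1%. P-values were adjusted by the Benjamini-Hochberg method over the 12027 genes, and an adjusted p under 0.05 was called. Each standard error (SE) is the log2 fold change divided by the root of its F value. A floor of 3 counts corresponds to 0.127 to 0.269 CPM per library, which covers counting error only. Groups came from the labels' source names. Centred levels are log2 CPM with a prior count of 2. Alternatives were other scalings, no filter, DESeq2 1.42.0, limma 3.58.1 (voom with quality weights), lines fitted alone, libraries left out and pairs of Raji libraries summed. Of the summed pairs only wild type 3 and 4 were near-identical, with a chi-square over degrees of freedom of 2.18. Knockout 1 and 2 gave 21.9, and knockout 3 and 4 gave 49.1. The script was tested on simulated counts. Exonic lengths and overlaps came from GENCODE release 29.

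The genes, the lists and the tests were chosen with earlier results of these data known. Full values are given for genes called in any comparison, for the 2 genes with the smallest p in each direction of each comparison, and for 10 genes fixed by role. ASPM, CDC25C and the other genes outside that rule that stand at the end of a range were named after their values were seen. Another B cell marker of the fixed list is not reported here.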

Additional observations from a re-analysis of the deposited data

Results flagged for a closer look

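In 7 of 98 groups of 4 libraries examined for single genes and list levels, the highest or lowest library lay so far from the others that the gap to the next one, over the group's range, passed Dixon's 95% critical value. Chance alone flags about 1 in 20 such groups, and the genes are not independent of each other.

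Raji wild type 1 was the far low library for CDK1 (104 CPM), KIF20A (71.0 CPM) and DLGAP5 (53.2 CPM), and for the mean centred level of the list of mitotic entry and exit regulators (-0.39). Raji wild type 2 was the far high library for ASPM (137 CPM). Raji knockout 4 was the far low library for TPX2 (191 CPM) and UBE2C (73.9 CPM).

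MELK was taken up because its log2 fold change with knockout differed between the lines by -1.88, Raji minus Daudi, in edgeR's quasi-likelihood test (adjusted p = 0.0468). It was lower in 4 of 4 Raji knockout libraries than in any Raji wild-type library, and the Daudi groups overlapped.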

How the results depend on the processing

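No paired analysis was possible because the labels give no replicate numbers that groups share. Of the 38 genes, 0 passed in Raji knockout under 20 of 21 alternative settings, and 4 passed with limma-voom and quality weights, which called 29.3% of all genes. In Daudi knockout, and for the mean of both lines, 0 passed under every setting run. For the difference between the lines' knockout effects, leaving out each library in turn gave 0 to 1 genes, the 1 being CDC25B without Daudi wild type 2, where 4.02% of all genes passed. For the wild-type lines, leaving out each library gave 3 to 10 genes, against 6, with 3 without Daudi wild type 1 (34.6% of all genes) and 10 without Raji knockout 4 (46.9%). The cause was not tested. Leaving out both Raji knockout 4 and Daudi knockout 2, chosen after seeing the data, gave 0 genes in both knockout comparisons with medians of 0.15 and 0.26.

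The median log2 fold change of the 38 genes ran over the settings from -0.23 to 0.15 in Raji knockout and from -0.27 to 0.26 in Daudi knockout, and none of the results given reversed a called direction. Counts over all genes moved more: 313 genes in Raji (19 to 3519), 315 in Daudi (14 to 934), 408 for the mean of both lines (70 to 966) and 93 for the difference between lines (6 to 502). Scaling by library totals alone moved the all-gene median between the wild-type lines from -0.07 to -0.30 and the share of calls higher in Raji from 45.0% to 30.3%. NUSAP1, BUB1B, PLK1 and KIF20A kept positive and KIF4A and CDC25B negative differences under it. With 2 libraries a group, Daudi intervals reach beyond 2-fold for 13 of 38 genes.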
